A study of Mus musculus with 9 samples.

Results

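The 9 genes described here are T-box transcription factors (Tbx1, Tbx2, Tbx3, Tbx4, Tbx5, Tbx15, Tbx18 and Tbx20) and the homeobox factor Pitx1, compared between adult mouse heart and quadriceps muscle. They were taken by name from a table of read counts per RefSeq transcript, where they have 15 of the 35745 rows and are 9 of its 24537 gene names. The heart group holds 3 RNA sequencing libraries of sham-operated hearts, and the quadriceps group holds 3 libraries of sham-operated quadriceps muscle. The mice were C57Bl6 by the series' description and male C57Bl/6JCrl by the study's methods, were 8 weeks old at surgery by that description and were sampled 12 weeks later, and the labels name no transgene or drug. Another 3 libraries of the series come from quadriceps after transverse aortic constriction (TAC), an operation that narrows the aortic arch. The TAC table lists 587 genes and none of the 9, so the TAC libraries are not used here. Nothing in the labels says whether heart and muscle came from the same animals, or which chambers of the heart were taken.

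T-box factors share a DNA-binding domain, the T-box, and are known for giving parts of the embryo their identity. In the heart, Tbx5 and Tbx20 act with GATA and NK2 factors to switch on chamber muscle genes, while Tbx2 and Tbx3 repress that programme in the atrioventricular canal and the conduction system. Tbx18 marks the epicardium, the inflow region of the heart and cells of vessel walls. In the limb, Pitx1 and Tbx4 are hindlimb factors and Tbx5 is the forelimb counterpart of Tbx4. Tbx15 acts in limb mesenchyme and in fast, glycolytic muscle fibres, and Tbx1 in the pharyngeal arches and the head muscles that arise there.

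The 9 genes lie on 6 chromosomes of the GRCm38 assembly, by the GENCODE annotation. Tbx3 (chr5:119670669-119684724) and Tbx5 (chr5:119832668-119885219) are neighbours on the plus strand, 147.9 kb apart, with no coding gene between them. Tbx2 (chr11:85832551-85841948) and Tbx4 (chr11:85886422-85916097) lie 44.5 kb apart, also on the plus strand, with 1 coding gene (Gm11444) between them. These pairs are the outcome of an ancient duplication, in which Tbx2 corresponds to Tbx3 and Tbx4 to Tbx5. Tbx18 (chr9:87702800-87731260) and Tbx20 (chr9:24718138-24774303) are on the minus strand of chromosome 9. Tbx15 is at chr3:99240381-99354259 on the plus strand, Tbx1 at chr16:18580979-18590671 on the minus strand and Pitx1 at chr13:55825051-55836192 on the minus strand. Tbx3, Tbx15, Tbx18 and Pitx1 each overlap an annotated transcript of the opposite strand. Whether the counting used strand is not given in the sources used here, so reads from those partners cannot be told apart from theirs.

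The RefSeq promoter table (GRCm38.p6) held 5 promoter windows of 300 bases for 4 of the 9 genes, each running from 250 bases before the start of a transcript to 50 after it. Windows of Tbx20, which was lower in quadriceps, and of Tbx1 and Tbx4, which were higher, are printed here. The second window of Tbx1 and that of Tbx18, which was also lower in quadriceps, are described below but not printed. The sequences are written in the direction of transcription, 5′ to 3′, with every CG dinucleotide in capitals.
Tbx20, chr9:24774254-24774553, minus strand: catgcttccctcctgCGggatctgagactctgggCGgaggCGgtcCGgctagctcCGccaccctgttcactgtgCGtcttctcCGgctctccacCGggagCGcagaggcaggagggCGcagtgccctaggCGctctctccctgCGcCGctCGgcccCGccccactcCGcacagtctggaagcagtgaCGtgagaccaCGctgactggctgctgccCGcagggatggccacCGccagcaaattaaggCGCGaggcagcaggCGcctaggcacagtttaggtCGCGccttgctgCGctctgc
Tbx1, chr16:18588850-18589149, minus strand: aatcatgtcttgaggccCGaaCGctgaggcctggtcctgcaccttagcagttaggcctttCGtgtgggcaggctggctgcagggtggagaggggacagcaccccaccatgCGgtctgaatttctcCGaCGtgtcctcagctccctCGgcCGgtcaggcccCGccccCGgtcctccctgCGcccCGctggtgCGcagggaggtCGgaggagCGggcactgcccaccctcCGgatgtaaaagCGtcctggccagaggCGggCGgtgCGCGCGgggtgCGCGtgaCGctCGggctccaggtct
Tbx4, chr11:85896515-85896814, plus strand: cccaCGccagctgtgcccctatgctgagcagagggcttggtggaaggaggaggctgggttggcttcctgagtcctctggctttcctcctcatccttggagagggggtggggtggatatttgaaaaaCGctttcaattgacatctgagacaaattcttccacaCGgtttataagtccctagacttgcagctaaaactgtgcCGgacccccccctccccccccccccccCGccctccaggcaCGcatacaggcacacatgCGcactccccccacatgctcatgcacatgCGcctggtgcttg

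The Tbx20 window and the Tbx1 window held 26 CG dinucleotides each, a number reached by 16.9% of all 32851 promoter windows, of which the median held 7. Tbx4 had 8, and 54.2% of all windows had 8 or fewer. The other start of Tbx1 (chr16:18590622-18590921) had 16 and that of Tbx18 (chr9:87731211-87731510) had 15. The Tbx4 window began inside the annotated gene and held 6 E-boxes (CANNTG, the motif of muscle bHLH factors), which 0.67% of windows reach. It also held a TATAAA on the minus strand, 85 bases before the start, and 13.6% of windows hold this motif. The T-box core motif GGTGTG, the Pitx motif TAATCC and the GATA motif AGATAA, searched on both strands, were in none of the 5 windows. They are in 19.0%, 7.06% and 11.2% of all windows. These matches describe the letters of the windows, and none of the measurements here bears on binding.

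Library totals were 33102826 to 38382751 counts in heart and 23383452 to 32989108 in quadriceps. Heart muscle markers were lower in quadriceps for 7 of 7 genes and fast skeletal muscle markers higher for 7 of 7, so both tissue labels held. Heart library 1 stood apart in some atrial genes: Myl7, the atrial light chain, had 2075, 164 and 3 counts in heart libraries 1, 2 and 3. Myl4 had 6811, 756 and 91 there, and Sln 838, 48 and 2. Of the same list, Cacna1g, Smoc2 and Bmp10 were not highest in heart library 1. Cacna1g was at 2.31, 2.33 and 1.85 RPKM and Smoc2 at 12.7, 15.5 and 14.9. The summed RPKM of 10 atrial and conduction genes ran from 20.3 to 290.4 in heart and from 18.8 to 30.9 in quadriceps. Quadriceps library 1 was the richest in adipocyte genes, with 1183 counts of Adipoq against 425 and 94 in libraries 2 and 3. In bulk tissue, fewer cells of a type and less RNA per cell cannot be told apart.

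Low counts were filtered by asking for over 5 counts in 2 or more libraries, which left 14 of the 15 transcript rows, from 8 genes. Levels are given as counts scaled by TMM-adjusted library size (CPM) and, where genes are compared, per kilobase of transcript as well (RPKM). In no row did the heart and quadriceps libraries overlap, a separation seen in 72.6% of all 24280 tested transcripts (34.2% higher and 38.3% lower in quadriceps). The criterion used for rises (log2 fold change over 2, unadjusted p under 0.05) comes from the methods of the study, which state none for falls, and its mirror image was applied here to falls. By this fold criterion, Tbx1, Tbx4 and Tbx15 were higher in quadriceps and Tbx5, Tbx18 and Tbx20 lower. This criterion was met by 15.6% of all tested transcripts, 7.00% higher and 8.64% lower. With an adjusted p under 0.05 alone, 3 of the 8 genes were higher and 5 lower, where 66.6% of all transcripts pass, 32.2% higher and 34.4% lower. Tbx2 and Tbx3 were the genes that passed only this second rule. Tbx18 was the member just inside the fold criterion, at a log2 fold change of -2.09, and Tbx2 the one just outside, at -1.68. With library totals in place of TMM factors the median of all transcripts moved from -0.06 to -0.81. The calls were then 1136 higher and 4171 lower, against 1699 and 2097 with TMM factors. The direction of each of the 14 rows was the same under both scalings.

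**Figure D1:**
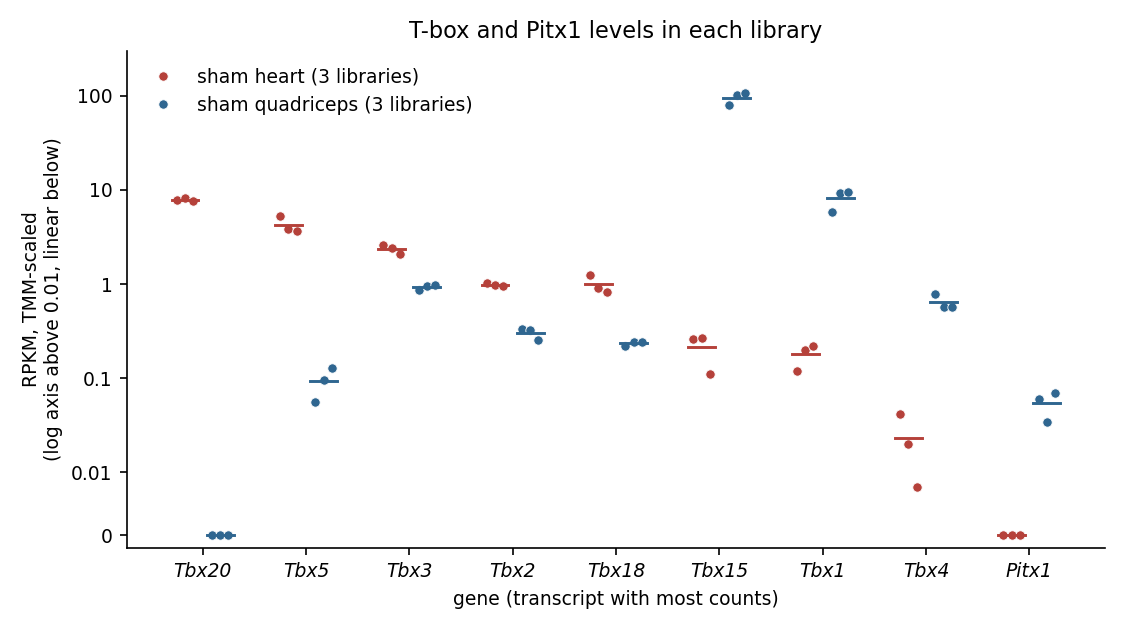
RPKM scaled with TMM factors (vertical axis, logarithmic above 0.01 and linear below) of the transcript with most counts of each gene, for 3 sham heart libraries (red) and 3 sham quadriceps libraries (blue), with a bar at each mean. Tbx20 is at 0 in quadriceps and Pitx1 at 0 in heart, and Tbx15 in quadriceps is the highest level, at 80.2 to 106.

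The heart-side genes were Tbx20, Tbx5, Tbx3, Tbx2 and Tbx18. Tbx20 is a T-box factor that heart muscle needs throughout life. Its longest transcript (NM_194263) had 2373, 2673 and 2079 counts in the 3 hearts and 0 in all 3 quadriceps libraries. No other gene among the 8 tested had reads in every library of one tissue and 0 in every library of the other. Set against 3 counts per quadriceps library, its level was at least 374-fold lower in quadriceps (heart 50.5 ± 2.42 CPM, SD, n = 3), with an adjusted p of 2.22e-08 by edgeR's quasi-likelihood test. The upper limit of 3 counts in the shallowest quadriceps library corresponds to 0.17 CPM.

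Tbx20 has a pair of short transcript rows. In the paired GENCODE models the last exon has 7655 bases in the long form and 456 in the short form. The counted long row has 6426 bases in all, so that model is longer than the row. NM_020496 had 242, 297 and 178 counts in heart and NM_001205085 had 241, 297 and 177, with 0 in every quadriceps library for both. The annotated short form shares 73.6% of its exonic bases with the long form, which shares 14.6% with it, so reads cannot be assigned to a form from these counts. Against the same 3 counts per library, the bounds were at least 37.3-fold and at least 37.2-fold lower. The lower bounds go with the lower heart counts of these rows, since the quadriceps limit is the same.

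Tbx5, the factor shared by heart and forelimb, had 986, 763 and 622 counts in the hearts against 6, 9 and 9 in quadriceps. Heart library 1 was the highest and every quadriceps library was below 10 counts. The log2 fold change, quadriceps minus heart, was -5.57 ± 0.26 (SE), or 47.4-fold lower, with an adjusted p of 1.40e-07 in the edgeR test. The quadriceps counts sum to 24, and the exact 95% counting interval of the ratio ran from 32.4- to 75.5-fold. This interval pools the libraries of each tissue and covers counting error only. Without heart library 1, the one with the most Myl7, Myl4 and Sln reads of the hearts, the log2 fold change of Tbx5 was -5.39. The part of the atrial content in the rest of its spread was not tested.

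Tbx3 and Tbx2, the repressors of the chamber programme, were lower in quadriceps by smaller factors. Tbx3 (NM_198052) had 588, 583 and 426 counts in the hearts against 112, 109 and 82 in quadriceps. In CPM this was 11.3 ± 1.24 against 4.44 ± 0.278 (SD, n = 3), a log2 fold change of -1.35 ± 0.13 (SE) with an adjusted p of 1.3e-05 (edgeR). The second Tbx3 row (NM_011535), which shares 95.2% of its bases with the first, gave -1.33. Tbx2 had 174, 176 and 146 counts in the hearts against 32, 28 and 16 in quadriceps. Its 3 heart values were within 3.40 to 3.65 CPM and its quadriceps values within 0.90 to 1.18, so the tissues lay apart by more than the spread within either. The log2 fold change of Tbx2 was -1.68 ± 0.17 (SE), or 3.20-fold lower, with an adjusted p of 2.2e-05 in edgeR.

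Tbx18, the epicardial and inflow factor, had 279, 212 and 167 counts in the hearts against 28, 27 and 20 in quadriceps. As with Tbx5, heart library 1 was the highest. The log2 fold change was -2.09 ± 0.21 (SE), or 4.25-fold lower, with an adjusted p of 2.25e-05 (edgeR). Leaving out heart library 1 gave -1.89, which no longer meets the fold criterion. The epicardial markers that were tested, Wt1 and Aldh1a2, were both lower in quadriceps by adjusted p, 1 of them by the fold criterion, and the summed RPKM of the 5 was 1.92 to 2.49 in heart and 0.774 to 1.11 in quadriceps. Wt1 had 93, 103 and 116 counts in the hearts against 1, 0 and 1 in quadriceps, and Aldh1a2 had 168, 131 and 146 against 56, 34 and 29. Upk3b, Msln and Krt19 had too few counts to be tested and did not share 1 direction. Upk3b had 14, 2 and 0 counts in the hearts and 0 in quadriceps. Krt19 was higher in quadriceps, at 0.107 to 0.165 RPKM against 0.0459 to 0.102 in heart. Mural and smooth muscle markers summed to 141 to 152 RPKM in heart and 111 to 138 in quadriceps, with 1 of 8 lower by the fold criterion (Notch3), 4 lower and 1 higher by adjusted p. Fibroblast markers summed to 257 to 290 and 186 to 265, with 1 of 7 lower by the fold criterion, which was Tcf21, and 4 lower by adjusted p. The part of these cell types in the Tbx18 difference was not tested.

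Tbx15, Tbx1 and Tbx4 were the genes on the quadriceps side, along with a few reads of Pitx1. Tbx15 had 44, 48 and 17 counts in the hearts against 7758, 8554 and 6670 in quadriceps. Heart library 3 was the lowest, and the hearts reached at most 0.954 CPM while every quadriceps library was at 285 CPM or above. The level was 0.758 ± 0.314 CPM in heart and 340 ± 48.3 in quadriceps (SD, n = 3). The log2 fold change of Tbx15 was 8.78 ± 0.29 (SE), or 441-fold higher, with an adjusted p of 1.44e-08 (edgeR), and ranked 109 from the top among the 24280 tested transcripts.

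Adipocytes are a tissue where Tbx15 is also known to be active, and all 5 tested adipocyte markers were higher in quadriceps, with a summed RPKM of 0.337 to 1.49 in heart and 12.6 to 102 in quadriceps. In quadriceps libraries 1, 2 and 3, Tbx15 was at 80.2, 101 and 106 RPKM and Adipoq at 1183, 425 and 94 counts. Without quadriceps library 1 the log2 fold change of Tbx15 was 8.92, and the libraries that remain still had more Adipoq reads (425 and 94) than the hearts (26, 13 and 7). Satellite cell markers were also higher for 4 of 4 genes by the fitted values, at 1.14 to 1.23 RPKM in all against 0.0407 to 0.0795 in heart. Pax7, Myf5 and Calcr were at 0 in every heart. Set against 3 counts per heart library, Calcr was at least 3.49-fold higher, short of the fold criterion. The list's median log2 fold change was 6.77, and 3.01 with the bounds. With library totals 3 of the 4 met the criterion. The part of adipocytes and satellite cells in the Tbx15 level was not tested.

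Tbx1, the pharyngeal factor, was the second gene by level in quadriceps. Its row NM_011532 had 10, 18 and 17 counts in the hearts against 280, 393 and 300 in quadriceps. The lowest quadriceps library was the first, at 10.3 CPM against 16.4 and 16.95 in the others, and all 3 were far above the hearts at 0.210 to 0.396. The log2 fold change of Tbx1 was 5.49 ± 0.28 (SE), or 44.8-fold higher, with an adjusted p of 2.19e-07 (edgeR). The other Tbx1 rows had the same heart counts and 279, 391 and 300 in quadriceps, so that the 3 rows largely count the same reads.

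Tbx4, the hindlimb T-box factor, had 6, 3 and 1 counts in the hearts against 64, 41 and 30 in quadriceps. Its pair of transcript rows had identical counts and are 1 measurement. Quadriceps library 1 was the highest at 2.35 CPM, and the others were at 1.71 and 1.70. The log2 fold change was 4.70 ± 0.40 (SE), or 26.1-fold higher, with an adjusted p of 6.82e-06 (edgeR). The heart counts sum to 10, and the exact 95% counting interval of the ratio ran from 14.6- to 59.0-fold, again for counting error only. Without heart library 1 the log2 fold change was 5.38, and without quadriceps library 1 it was 4.55.

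Pitx1, the homeobox factor that sets hindlimb identity and acts upstream of Tbx4, had 0 counts in all 3 hearts and 4, 2 and 3 in quadriceps. It did not have more than 5 counts in any library and was not tested. Summed over the libraries of each tissue, the 9 quadriceps reads have an exact 95% Poisson interval of 4.12 to 17.1. The 0 heart reads allow up to 3.69 in sum, before any scaling for depth, and these intervals cover counting error only. No fold is given, because folds from 0 are set here against 3 counts per library and the quadriceps counts of Pitx1 were about that number. In RPKM, Pitx1 was at 0.0546 ± 0.018 (SD, n = 3) in quadriceps, which overlapped the level of Tbx5 there.

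**Figure D2:**
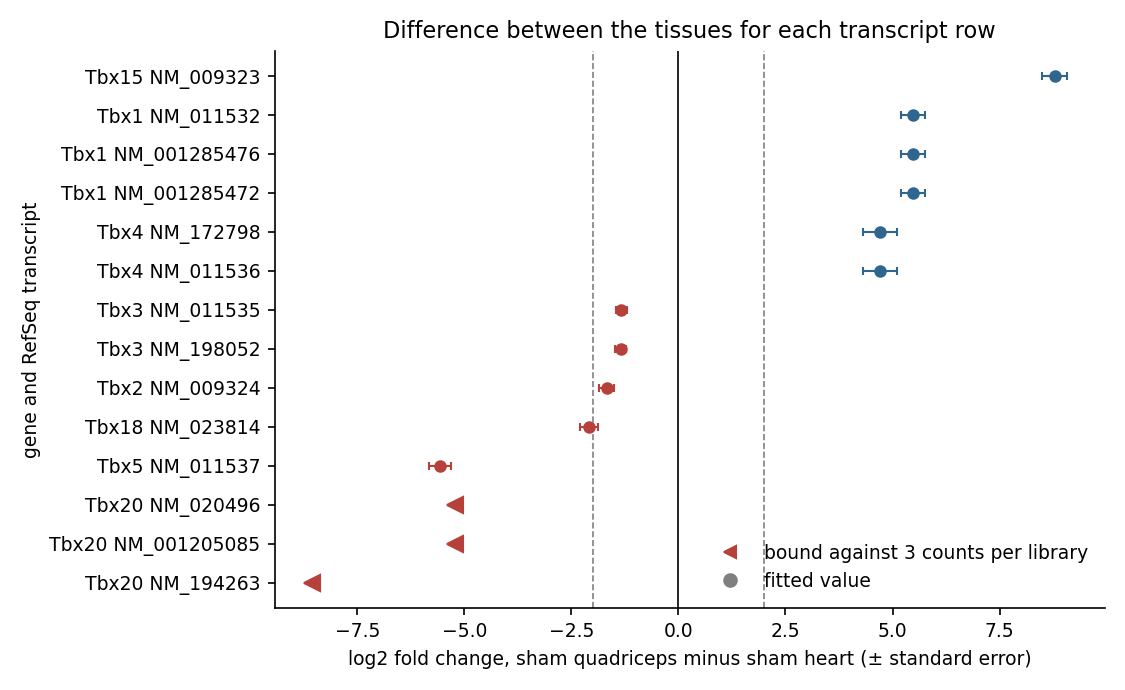
Log2 fold change, quadriceps minus heart, with its standard error for the 14 tested transcript rows, and dashed lines at the fold criterion of 2 in either direction. The triangles of the 3 Tbx20 rows are bounds set against 3 counts per quadriceps library, Tbx15 is the largest rise at 8.78, and Tbx2 and Tbx3 lie inside the lines.

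Ordered by RPKM, which corrects for transcript length, the heart levels were Tbx20 at 7.85 ± 0.377, Tbx5 at 4.27 ± 0.867 and Tbx3 at 2.37 ± 0.260 (SD, n = 3). Tbx18 at 0.997 and Tbx2 at 0.990 followed, and their libraries overlapped. Tbx15 at 0.213 and Tbx1 at 0.181 also overlapped, and Tbx4 was at 0.0232. The quadriceps order was Tbx15 at 95.6 ± 13.6, Tbx1 at 8.19 ± 2.08, Tbx3 at 0.930 ± 0.0584, Tbx4 at 0.640 ± 0.125, Tbx2 at 0.305 ± 0.0438 and Tbx18 at 0.235 ± 0.0124. Below them were Tbx5 at 0.0937 and Pitx1, which overlapped, and Tbx20 at 0. Tbx3 thus had the same rank in both tissues, behind a pair of members that differed between them. Heart levels were spread over several members, with 46.7% of the summed RPKM in Tbx20, 25.1% in Tbx5 and 14.0% in Tbx3. In quadriceps a single gene took most of the sum, since Tbx15 held 90.2% (89.8% to 90.8% over the libraries) and Tbx1 7.64%. The sum over the 9 genes was 15.4 to 18.3 RPKM in heart and 88.3 to 118 in quadriceps.

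**Figure D3:**
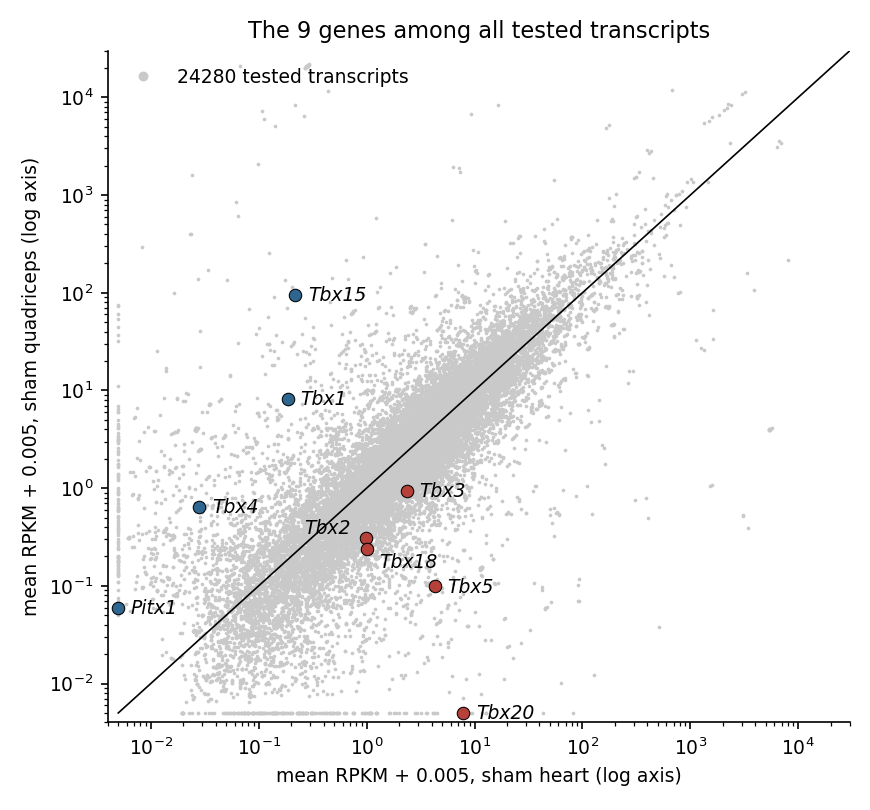
Mean RPKM in sham quadriceps against sham heart, both axes logarithmic after adding 0.005, for 24280 tested transcripts (grey) and the 9 genes (blue where higher in quadriceps, red where higher in heart), with a line of equal levels. Tbx15, Tbx1 and Tbx4 lie above the line, Tbx20 and Tbx5 far below it, and Tbx2, Tbx3 and Tbx18 nearer to it.

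Ratios between related genes within a library do not depend on the scaling between libraries. Tbx4 over Tbx5, the hindlimb and forelimb pair, was 0.00797, 0.00515 and 0.00211 in heart and 14.0, 5.97 and 4.37 in quadriceps. Tbx5 was thus the more abundant of the pair in all 3 hearts and Tbx4 in all 3 quadriceps libraries, with a log2 difference of 10.66 between the tissues. Tbx15 over Tbx18, members of one T-box subfamily, was 0.207, 0.297 and 0.134 in heart and 364, 416 and 438 in quadriceps, a log2 difference of 10.97. Tbx2 over Tbx3 was 0.397, 0.405 and 0.460 in heart and 0.383, 0.345 and 0.262 in quadriceps, a log2 difference of -0.37. Tbx3 exceeded Tbx2 in all 6 libraries. For each of the 3 pairs the tissues did not overlap and the exact two-sided permutation test gave p = 0.1, the smallest p that 3 against 3 libraries allow. This p therefore does not tell large differences from small ones. For Tbx2 over Tbx3 the gap was narrow, from 0.383 to 0.397, with only 32, 28 and 16 Tbx2 counts in quadriceps. Tbx4 over Tbx5 rests on 6, 3 and 1 Tbx4 counts in heart and 6, 9 and 9 Tbx5 counts in quadriceps. The counting error of these ratios was not computed.

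**Figure D4:**
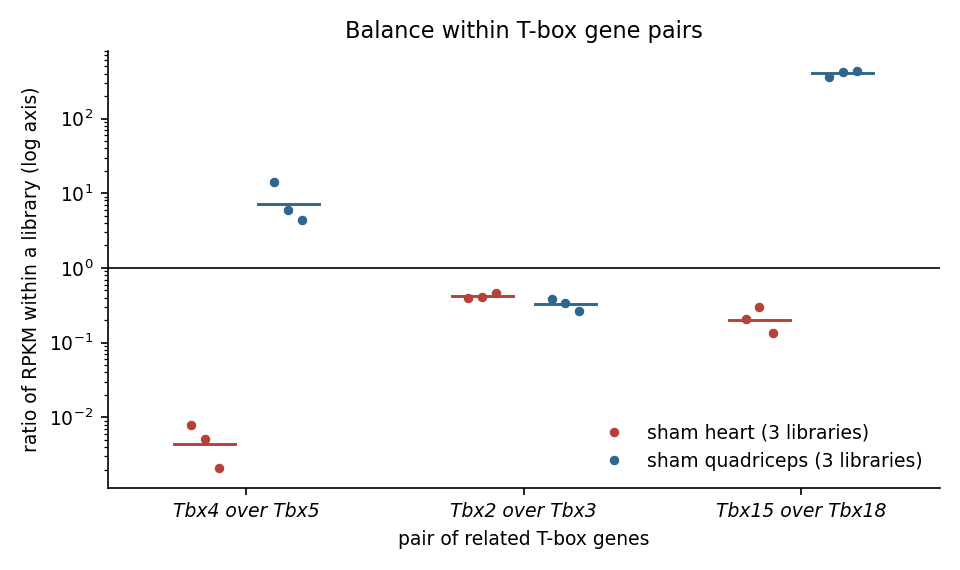
Ratio of RPKM within a library (logarithmic axis) for 3 pairs of related T-box genes in 3 sham heart libraries (red) and 3 sham quadriceps libraries (blue), with a bar at each geometric mean and a line at 1. Tbx4 over Tbx5 and Tbx15 over Tbx18 lie below 1 in heart and above 1 in quadriceps, and Tbx2 over Tbx3 stays below 1 in both.

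Most of the remaining T-box and Pitx genes had few reads in these tissues, apart from Mga at 1.94 to 3.52 RPKM. Of 10 others, 4 were tested, 2 were higher in quadriceps by the fold criterion and none was lower, with a median log2 fold change of 1.56. Over all 14906 tested genes, 7.14% were higher and 9.04% lower, and the median was -0.05. Both higher genes, Tbx21 and Pitx3, passed the count filter only with the help of their quadriceps counts. The number higher and the median of the 4 tested genes therefore cannot be read against these shares. Tbx21, the T-bet factor of T helper cells, had 2 counts in each heart library and 11, 14 and 9 in quadriceps (log2 fold change 3.44, edgeR adjusted p 0.000116). Pitx3 had 2, 3 and 7 counts in the hearts against 19, 15 and 10 in quadriceps (2.84, adjusted p 0.000531). The values of Tbx6 (0.23, adjusted p 0.727) and of Mga, a large protein with a T-box (0.28, adjusted p 0.243), did not pass. Tbx10, Tbx19 and Tbx22 had 0 counts in every library, where 3 counts is the limit that each 0 allows.

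Cardiac partner factors, a list that includes the GATA and NK2 factors with which Tbx5 and Tbx20 act, were mostly lower in quadriceps. Of 13 genes, 11 were tested, 8 were lower and 1 higher by the fold criterion. Their median was -7.14 on the log2 scale and -6.70 with the 4 genes at 0 in quadriceps set to their bounds. Gata4 had 2099, 2152 and 1832 counts in heart and 0 in all 3 quadriceps libraries, at least 320-fold lower. Hand2, Irx4 and Nkx2-5 were likewise at 0 in quadriceps, at least 195-fold, 150-fold and 104-fold lower. Mef2c, a MADS-box factor of all striated muscle, was the gene that was higher, with a log2 fold change of 3.63 (edgeR adjusted p 1.64e-08). Irx3 (-1.69) and Sall4 (0.30) did not meet the fold criterion. Heart muscle markers were all lower in quadriceps too, so the falls in this list cannot be told apart from heart muscle content.

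Of the cardiac T-box target genes, 13 were tested, 11 were lower in quadriceps by the fold criterion and 12 by adjusted p, with none higher by either and a median of -5.54 on the log2 scale. Ryr2, the calcium release channel of heart muscle, was the largest fall, with 54458, 53823 and 41636 counts in the hearts against 4, 0 and 2 in quadriceps (log2 fold change -13.51, edgeR adjusted p 2.99e-09). The 2 tested genes that did not meet the criterion were Gja5, the connexin of atria and conduction system (-1.23, adjusted p 0.000216), and Kcnj2, a potassium channel of both muscle types (0.48, adjusted p 0.0802). All heart muscle markers were lower in quadriceps as well, with a median of -10.4, so this list cannot be told apart from heart muscle content.

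Limb positional genes, among them the HoxC cluster, were tested for 13 of 14 genes. By the fold criterion 7 were higher in quadriceps and 2 lower, and the list's median was 5.86 on the log2 scale (4.55 once the 3 genes at 0 in heart take their bounds). The higher genes were Hoxc4, Hoxc5, Hoxc9, Hoxc10 and Hoxc11 of the HoxC cluster, and Lbx1 and Emx2. Most of this count thus comes from a single gene cluster. Hoxc10, a hindlimb and lumbar HoxC gene, had 0 counts in heart and 1521, 1961 and 1299 in quadriceps, at least 1100-fold higher. Meis2, a homeobox cofactor of proximal limb and heart, was the largest fall, at -5.14 (edgeR adjusted p 7.03e-09), and Meis1 was the other at -2.19. Shox2, Meox2, Msx1 and Fgf10 lay between -0.47 and 0.81.

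**Figure D5:**
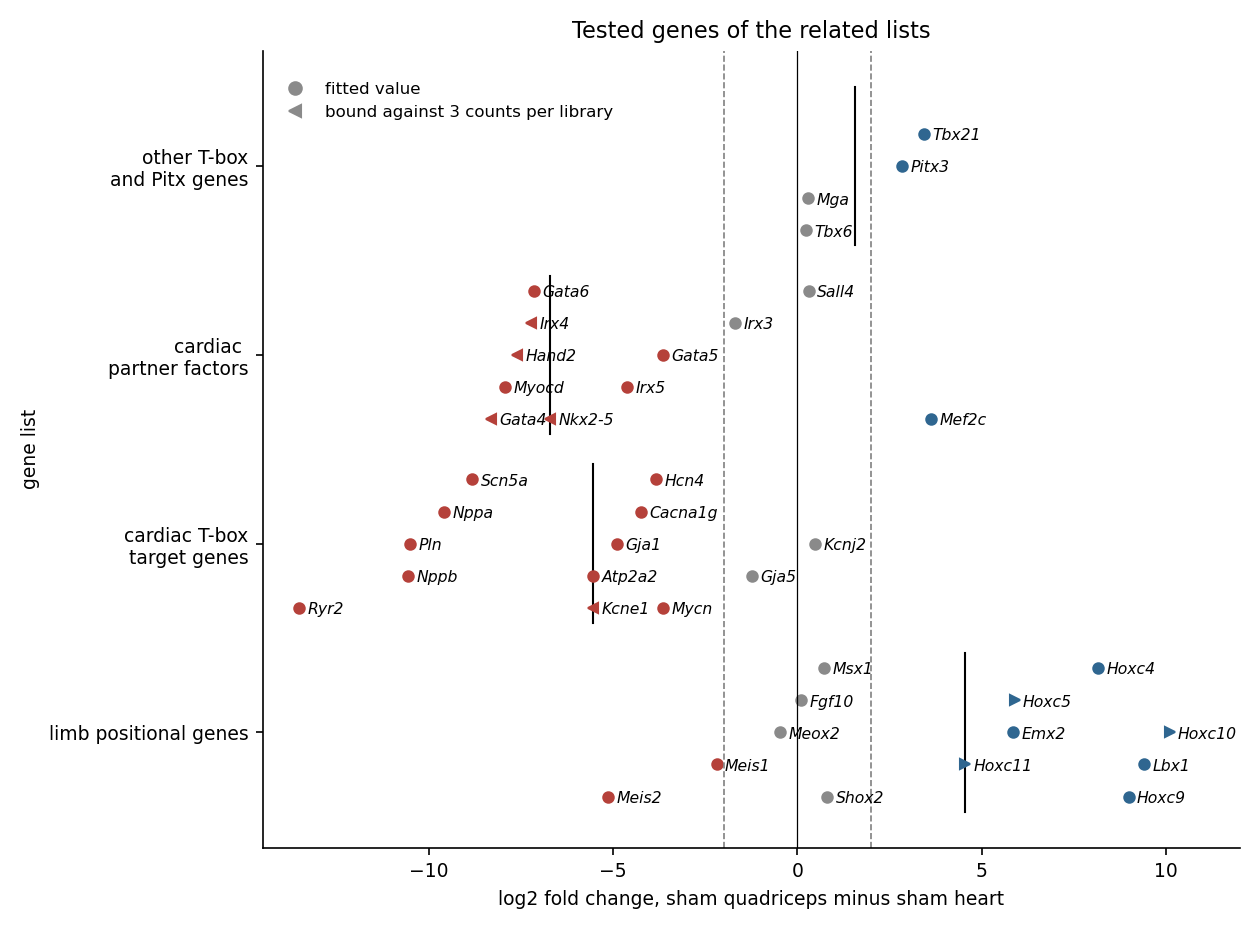
Log2 fold change, quadriceps minus heart, of the tested genes in 4 related lists, with dashed lines at 2 in either direction, a vertical bar at each list's median (taken with the bounds) and triangles for bounds set against 3 counts per library. Blue points are higher and red points lower by the fold criterion, with the cardiac lists mostly to the left and the limb list mostly to the right.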

How the data were processed

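mRNA was purified from total RNA of mouse heart and quadriceps and sequenced as single-end reads after ScriptSeq v2 library preparation. Trimming by the authors used Trim Galore! and discarded reads shorter than 20 nt. They then ran STAR against mm10, counted per RefSeq transcript with Rsubread, and deposited raw counts and RPKM values for each library. The deposited tables also hold the authors' own comparison columns (fold changes, p-values), which were not used, and the TAC table served only to look up gene names.

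Counts were tested with edgeR 4.0.16 (R 4.3.3, quasi-likelihood test, TMM normalization, Benjamini-Hochberg adjustment over 24280 transcripts) on 3 sham heart and 3 sham quadriceps libraries, keeping transcripts that exceeded 5 counts in 2 libraries or more, with no replicate block. All differences are quadriceps minus heart. CPM (counts scaled by library size) and RPKM given here were computed from the counts with TMM-scaled library sizes, which puts the totals of 23383452 to 38382751 counts on 1 scale. Levels use the transcript with most counts of each gene, and standard errors are the log2 fold change divided by the square root of F. Folds against a group at 0 were set against 3 counts per library, which covers counting error only.

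Alternatives were DESeq2 1.42.0, DESeq2 size factors, library totals, other count filters, limma 3.58.1 on the deposited RPKM as log2(RPKM + pseudocount) with pseudocounts of 0.5, 0.1 and 1, 1 transcript per gene, a replicate block, another threshold and leaving out each library. On simulated data with 200 transcripts changed by a log2 fold change of 2, 100% were recovered among 23836 tested and 5.66% of the calls were false. These calls used an adjusted p under 0.05. The simulation gave all transcripts a single dispersion, changed only well-counted ones and held no other tissue difference. It therefore checks the code and does not give the error rates of these data. Replicates differed by more than sampling noise (chi-square per degree of freedom 7.40 to 59.6). The study describes its replicates as biological, and the labels do not tie libraries to animals, so p-values measure the spread between these libraries.

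Named genes are the 9 members with every transcript row, the 2 genes with the nearest profile to each member called by the fold criterion, the other tested T-box and Pitx genes, and in each related list the largest rise and fall that meet that criterion. Other genes are named to describe a list or a library and were picked once their values were known. The result of 1 listed gene is not reported here, and its list is counted without it. The members and the lists were chosen with earlier results of these data known.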

Additional observations from a re-analysis of the deposited data

How the results depend on the processing

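Under 16 alternative settings, 212 values could be computed for the 14 tested rows, and all 212 kept the direction and an adjusted p under 0.05. The number of genes lower by the fold criterion, 3 as reported, was 5 with library totals (where Tbx2 at -2.42 and Tbx3 at -2.10 passed), 5 with an adjusted p under 0.05 alone and 5 with a log2 fold change over 1. It was 1, Tbx18, with at least 10 counts in every library, a filter that removes Tbx5 and Tbx20 because of their low quadriceps counts. The number higher was 2 to 4 over all alternatives, and 4 with no count filter, where Pitx1 passed. Leaving out each library in turn gave 3 to 3 genes higher and 2 to 3 lower, with Tbx18 lost without heart library 1. On RPKM with a pseudocount of 1 or 0.5 the rise of Tbx4 was 0.54 and 0.91, and Tbx18 was at -0.95 and -1.39, so neither met the fold criterion there, while Tbx15 rose by 5.86 and 6.58. With a pseudocount of 0.1, Tbx2 passed as well, at -2.05.

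Over all transcripts, 1699 were higher and 2097 lower as reported. Library totals gave 1136 and 4171, at least 10 counts in every library 861 and 839, and RPKM with pseudocounts of 0.5, 0.1 and 1 gave 552 and 1344, 801 and 2609, and 419 and 903. The 1-transcript-per-gene fit, with 14906 tested, gave 1059 and 1353. With the replicate number as a block, 1687 were higher and 2098 lower, and 3 and 3 of the genes described here. The same-numbered libraries of the tissues did not deviate together (r = 0.00655, -0.16 and -0.0778), and no library correlated best with its own number, so the number was not used to pair them. The labels leave the animals of origin unstated. Depth limits Pitx1, Tbx4 in heart and Tbx5 and Tbx20 in quadriceps, all with counts of at most 9 per library there.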

Other observations

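The genes whose profiles over the 6 libraries lay nearest to each called member were found by the root mean square difference of centred log2(CPM + 0.1), a description with no test. Where a library has few or 0 counts, the pseudocount sets part or all of its value. For Tbx20 these were Gata4 (0.12) and Kcnj5 (0.187), a channel subunit of the muscarinic potassium current, with 2630, 2406 and 2176 counts in the hearts against 1, 0 and 0 in quadriceps. Tbx20 and Gata4 both had 0 counts in every quadriceps library, so the pseudocount alone sets their values there. For Tbx5 they were Fgf16 (0.195), a growth factor of heart muscle with 556, 493 and 526 counts against 4, 6 and 5, and Tox3 (0.206). Tbx18 lay nearest to 5430419D17Rik (0.058) and 1700003E16Rik (0.0905), both with fewer than 50 counts in any library, where the pseudocount sets part of the profile.

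On the quadriceps side, Tbx15 lay nearest to Myl1 (0.252), the fast skeletal alkali light chain, with 776, 714 and 413 counts in the hearts against 169764, 185183 and 108212 in quadriceps, and to Plcd4 (0.314), with 13, 15 and 9 against 3085, 2833 and 2178. Tbx1 lay nearest to Col24a1 (0.121), a fibrillar collagen, and Neurl1a (0.178). Col24a1 had 1, 2 and 3 counts in the hearts, where the pseudocount sets part of its profile. Its log2 fold change was 6.77, against 5.49 for Tbx1. Tbx4 lay nearest to the non-coding A330074K22Rik (0.143) and to Sfrp4 (0.181), a secreted Wnt antagonist with 5, 5 and 1 counts in the hearts against 84, 46 and 31 in quadriceps. Quadriceps library 1 was the highest of its group in counts for both. The heart counts of Tbx4 and Sfrp4 are few, and the pseudocount sets part of their profiles there.

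Among the other cell type lists, 1 of 5 endothelial markers was lower in quadriceps by the fold criterion and 5 of 5 by adjusted p, with a summed RPKM of 114 to 127 in heart and 35.4 to 42.1 in quadriceps. None of the 3 tested leukocyte markers met the fold criterion in edgeR (2 were lower by adjusted p), with sums of 5.20 to 5.86 and 2.41 to 6.56. No lung marker had enough counts to be tested, and their sum was at most 0.0157 RPKM in heart.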
